A study of Homo sapiens with 8 samples.

Results

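Wnt ligands and the secreted proteins that block them were followed by name: 10 genes were listed (WNT3, WNT3A, WNT5A, WNT5B, WNT8A, WNT11, SFRP1, SFRP2, FRZB and DKK1), and every row of the deposited gene table carrying one of these symbols was taken. Of the 10, 8 were found among the 15811 genes of the table, 4 ligands and 4 antagonists. WNT3A and WNT11 have no row in it and were not analysed here. RNA was sequenced from H9, an established human embryonic stem cell line, as 4 unedited libraries (WT) and 4 libraries of an EXT1-/- line made by CRISPR/Cas9. EXT1 is needed to build heparan sulfate, a sulfated sugar chain of the cell surface and matrix. All 8 samples shared the same handling: E8 medium on vitronectin, 5 µM of the ROCK inhibitor Y-27632 at seeding, and then 28 h in RPMI-1640 with 6 µM CHIR-99021, which pushes stem cells towards mesendoderm. A single edited line stands for the genotype, no sample taken before induction was analysed here, and the labels name no separate cultures. A p-value here therefore reflects only how far libraries of a group vary, a spread that could be technical.

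Wnt proteins are lipid-modified secreted signals. Some, such as WNT3 and WNT8A, chiefly stabilise β-catenin through Frizzled and LRP5 or LRP6, and others, such as WNT5A and WNT5B, mostly act through ROR receptors on cell shape and movement. SFRP1, SFRP2 and FRZB carry a Frizzled-like domain that captures Wnt proteins outside the cell, whereas DKK1 binds the LRP co-receptors and is itself a well-known β-catenin target. Heparan sulfate binds many Wnt and SFRP proteins and shapes how far they travel, and in the embryo Wnt signals set up the primitive streak, from which mesendoderm arises. CHIR-99021 inhibits GSK3, a step inside the cell that lies after ligand and receptor. The libraries measured RNA, not secreted protein.

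DKK1 held the only motif match among the members searched. WNT5A had the largest difference of the 8 and has more than 1 annotated start, which a count per gene does not separate. For these reasons the stretches before the transcript starts of DKK1 and WNT5A are shown. They are the 250 bases upstream of the start in RefSeq (GRCh38.p14), 5′ to 3′ on the gene's strand, at chr10:52314031-52314280 (plus strand) for DKK1 and at chr3:55487307-55487556 and chr3:55481399-55481648 (minus strand) for WNT5A. Capitals mark a match to a TCF/LEF motif.
DKK1: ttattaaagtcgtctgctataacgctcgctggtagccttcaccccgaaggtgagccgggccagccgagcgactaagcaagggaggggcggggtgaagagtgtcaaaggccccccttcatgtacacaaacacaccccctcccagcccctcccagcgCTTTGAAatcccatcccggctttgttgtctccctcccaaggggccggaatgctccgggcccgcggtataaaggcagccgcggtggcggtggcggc
WNT5A, upstream start: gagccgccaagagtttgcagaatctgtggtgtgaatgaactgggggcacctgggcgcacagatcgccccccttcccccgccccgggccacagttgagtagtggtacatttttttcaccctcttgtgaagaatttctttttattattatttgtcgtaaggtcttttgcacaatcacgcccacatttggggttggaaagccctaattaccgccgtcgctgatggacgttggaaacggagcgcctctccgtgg
WNT5A, downstream start: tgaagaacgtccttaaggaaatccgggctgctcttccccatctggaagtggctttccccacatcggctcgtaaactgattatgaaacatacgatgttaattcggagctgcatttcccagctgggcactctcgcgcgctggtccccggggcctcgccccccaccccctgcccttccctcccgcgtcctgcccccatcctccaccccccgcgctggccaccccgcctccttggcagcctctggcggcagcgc
The motifs searched were CTTTGAT and CTTTGAA, on both strands of windows of 300 bases (250 before to 50 after a start). Entries were found for 8 of the 10 members, 10 windows in all. SFRP1 and WNT11 had no entry and were not searched, while WNT3A, without a row in the gene table, was searched. DKK1 held the only match among them, a CTTTGAA on its own strand that begins 95 bases before the start. Of 35116 windows of this length over all genes, 2409 (6.86%) held at least 1 match. A match is a description of the letters and no evidence of binding.

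EXT1 was lower in the edited libraries, at 890, 894, 915 and 980 normalised read counts in replicate order, against 1776, 1499, 1464 and 1508 for WT. The groups did not overlap (log2 fold change -0.76 ± 0.07 SE, limma adjusted p = 9.20e-05), and the table does not show the edited stretch. Normalised counts, the authors' whole-number values scaled between libraries, summed to 37737058 to 40017763 per library. Libraries fell into 2 sets by the share of mitochondrial transcripts, which the labels do not name: 9.18 to 10.67% in WT replicate 1 and EXT1-/- replicates 1 and 4 (the high set), and 5.30 to 5.43% in the other 5 (the low set). Of the listed markers of induced mesendoderm, 7 of 8 were measured, of which 4 (TBXT, MIXL1, EOMES and NODAL) were lower and 0 higher by limma (1 higher at an unadjusted p below 0.05; 0 by limma-voom). Their summed count was 31590 to 35780 in WT and 11841 to 18588 in EXT1-/- libraries; MSGN1 has no row. Pluripotency markers (6 of 6 measured; 4 lower, 1 higher) summed to 162789 to 165706 and 120488 to 132638; SOX2 was the one that rose, by 0.94 on the log2 scale, and LIN28A, a large part of the sum, was not called. Neural plate border and crest markers (5 of 7, as SOX10 and FOXD3 have no row) went from 578 to 744 up to 5482 to 13290. Most of that sum was MSX1, which stood at 10856 in EXT1-/- replicate 4. Neuroectoderm markers (3 of 6, as PAX6, SOX1 and SIX3 have no row) went from 142 to 184 up to 2816 to 5000, most of it ZIC1. TFAP2A and DLX5 of the first list and POU3F2 and OTX1 of the second were below 1 CPM in every WT library, so they entered the table only through EXT1-/- values and had to be higher. Lateral mesoderm markers (4 of 6; FOXF1 and HAND2 have no row) summed to 11230 to 12195 and 2438 to 3256, mostly KDR; KDR and APLNR were lower by limma, while GATA4 and TBX3 were higher, TBX3 from WT values all below 1 CPM. Amnion and trophectoderm markers (5 of 6; ISL1 has no row) summed to 3610 to 3880 and 3910 to 6508, mostly CDX2, which was not called. HAND1 and TFAP2C were higher and GABRP was lower, with HAND1 at 0 to 1 normalised counts in WT and GABRP at 4 to 11 in EXT1-/- libraries, so the table's floor fixed the direction of HAND1 and GABRP. The part of these shifts in the differences described here was not tested, and in bulk RNA fewer cells of a type and less RNA per cell cannot be told apart.

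Among the 8 genes, WNT5A, WNT8A, DKK1 and FRZB were higher in EXT1-/- cells, SFRP2 and WNT3 were lower, and WNT5B and SFRP1 did not pass the test. The test was limma on log2(normalised count + 1) over the whole table, with Benjamini-Hochberg adjustment and 0.05 as the threshold. The 6 called members stand beside 32.0% of all 15811 genes called, the 4 higher beside 15.2% and the 2 lower beside 16.8%. Groups did not overlap for the same 6, beside 33.5% of all genes. The median size of the log2 fold change, sign aside, was 1.08 over the 8 members and 0.22 over all genes, and the signed medians were 0.19 and 0.01. The changes of 4 members (WNT5A, WNT8A, SFRP2 and DKK1) were called and at least 2-fold, against 7.02% of all genes. In the authors' deposited table the same 6 genes are marked at an FDR below 0.05, in the same directions, beside 26.2% of genes. All 8 members exceeded 1 CPM (38.9 normalised counts) in every library of both groups, so none entered the table only through the group where it was higher.

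**Figure D1:**
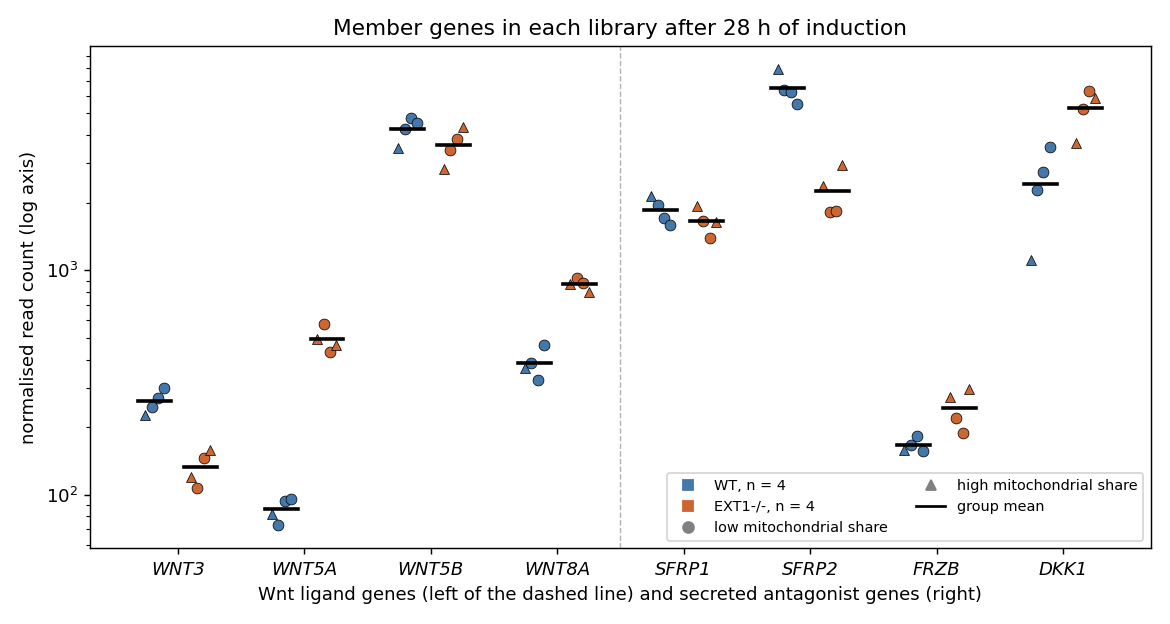
Normalised read count (log axis) of the 4 ligand and 4 antagonist genes in each library, blue for WT and orange for EXT1-/-, with triangles for the 3 libraries of high mitochondrial share, circles for the other 5 and bars at the group means. WNT5A runs from 73 to 96 in WT and from 434 to 577 in EXT1-/- libraries with no overlap, while the groups overlap for WNT5B and SFRP1.

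Of the ligands, WNT3 is the one whose loss stops primitive streak formation in the mouse. WT libraries held 227, 247, 270 and 299 normalised counts in replicate order, EXT1-/- libraries 120, 107, 146 and 158. Every edited library lay below every WT library. The means were 260.8 ± 31.0 and 132.8 ± 23.4 (SD, n = 4 each), a log2 fold change of -0.98 ± 0.14 (SE) with a limma adjusted p of 0.00100. Low-set libraries alone gave -1.11 and high-set libraries -0.72, where the high set holds 1 WT and 2 EXT1-/- libraries. The gene (ENSG00000108379) spans bases 46762506 to 46833154 of chromosome 17, minus strand (GRCh38, GENCODE 29).

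WNT8A, an early streak ligand of the β-catenin branch, moved the opposite way to WNT3. The 4 WT libraries had 366, 386, 324 and 465 normalised counts in replicate order, and the 4 edited ones 867, 923, 876 and 797. The lowest edited library was well above the highest WT library. The means were 385.2 ± 59.1 and 865.8 ± 52.0 (SD, n = 4 each), and the log2 fold change was 1.18 ± 0.11 (SE; limma adjusted p = 6.53e-05). The low set gave 1.21 and the high set 1.18. The gene (ENSG00000061492) spans bases 138083892 to 138092365 of chromosome 5, plus strand.

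WNT5A, which guides cell movement and axis elongation through ROR2, had the largest fold of the 8 genes. WT libraries held 82, 73, 94 and 96 normalised counts in replicate order, EXT1-/- libraries 495, 577, 434 and 467. The libraries of each group lay close together and the groups were far apart. The means were 86.2 ± 10.8 and 493.2 ± 61.1 (SD, n = 4 each), a 5.67-fold difference (log2 fold change 2.50 ± 0.12 SE, limma adjusted p = 2.22e-06). The low set gave 2.51 and the high set 2.54, so the library sets differed little for this gene. It lies on chromosome 3 (ENSG00000114251, bases 55465715 to 55490539, minus strand), where GENCODE 29 also places an antisense transcript, WNT5A-AS1. The kit marks strand, but whether counting used it is not given in the sources used here, so reads of the pair may not be separated.

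WNT5B, the close relative of WNT5A, did not follow it. WT libraries held 3491, 4251, 4772 and 4529 normalised counts in replicate order, EXT1-/- libraries 2822, 3437, 3839 and 4335. The groups overlapped, and replicate 1, in the high set, was the lowest library of each. EXT1-/- replicate 4, also in the high set, was the highest edited library. The means were 4261 ± 556 and 3608 ± 640 (SD, n = 4 each), with a log2 fold change of -0.25 ± 0.14 (SE; limma adjusted p = 0.219) and a 95% interval of -0.57 to 0.07. Within the low set it passed, at -0.31 ± 0.06 (adjusted p = 0.00719, beside 45.0% of all genes called there), and the high set gave 0.00. With the replicate number as a block it also passed (-0.25, adjusted p = 0.0310, beside 31.2% of genes), but with the library set as a term it did not (-0.20, adjusted p = 0.211, beside 51.8%). The gene (ENSG00000111186, chromosome 12, bases 1529891 to 1647243, plus strand) overlaps FBXL14 on the other strand, which was higher by 0.87 ± 0.14 (SE) on the log2 scale, so part of its count is uncertain.

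The ratio of WNT5A to WNT5B within a library was 0.0172 to 0.0235 in WT and 0.108 to 0.175 in EXT1-/- cells. The log2 ratio was 2.75 higher in EXT1-/- cells (SD 0.19 in WT and 0.37 in EXT1-/-, n = 4 each). Over the 70 ways to divide the libraries, an exact permutation test (two-sided) returned p = 0.0286, the lowest value it can take here, and 0.0286 after adjustment over the 2 ratios tested (the other is SFRP1 to SFRP2). Both pairs were picked with the values known, and WNT5A and SFRP2 alone already separated the groups.

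SFRP2 was the member with the largest fall. It binds Wnt proteins, and it was the most abundant of the 8 genes in WT cells. WT libraries held 7905, 6339, 6234 and 5506 normalised counts in replicate order, EXT1-/- libraries 2380, 1818, 1831 and 2954. The groups did not overlap, and within each group the libraries of the high set were the highest. The means were 6496 ± 1010 and 2246 ± 540 (SD, n = 4 each), a 2.93-fold fall (log2 fold change -1.55 ± 0.17 SE, limma adjusted p = 0.000186). The low set gave -1.72 and the high set -1.58. The gene (ENSG00000145423) spans bases 153780592 to 153789120 of chromosome 4, minus strand.

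SFRP1, the founding relative of SFRP2, stood at 2134, 1962, 1705 and 1598 normalised counts in the WT libraries, in replicate order, against 1933, 1666, 1386 and 1635 in the edited ones. The groups overlapped. The means were 1850 ± 243 and 1655 ± 224 (SD, n = 4 each), and the log2 fold change of -0.16 ± 0.12 (SE) did not pass (limma adjusted p = 0.346; 95% interval -0.44 to 0.11). It missed the threshold with the library set as a term too (-0.22, adjusted p = 0.0539). The ratio of SFRP1 to SFRP2 within a library was 0.270 to 0.310 in WT and 0.553 to 0.916 in EXT1-/- cells. The log2 difference was 1.39 (exact permutation p = 0.0286, two-sided, the same after adjustment over the 2 ratios). This pair was picked with the values known and SFRP2 alone already separated the groups, so the p-value adds no separate support. SFRP1 (ENSG00000104332) lies on the minus strand of chromosome 8, bases 41261958 to 41309497.

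FRZB, also known as SFRP3, moved the other way from SFRP2. WT libraries held 158, 166, 182 and 157 normalised counts in replicate order, EXT1-/- libraries 273, 220, 189 and 295. The groups did not overlap, but the lowest edited library was 189 and the highest WT library 182, and the high set held the 2 highest edited libraries. The means were 165.8 ± 11.6 and 244.2 ± 48.5 (SD, n = 4 each), a log2 fold change of 0.54 ± 0.14 (SE; limma adjusted p = 0.0202). Within the low set it was 0.28 and not called (adjusted p = 0.0959), and the high set gave 0.84. The call was also lost without WT replicate 2 (adjusted p = 0.0519), WT replicate 4 (0.0552) or EXT1-/- replicate 1 (0.0575). The gene (ENSG00000162998) is on chromosome 2, bases 182833275 to 182867162, minus strand.

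DKK1 had the largest standard error of the log2 fold change among the 8 genes. WT libraries held 1117, 2273, 2740 and 3529 normalised counts in replicate order, EXT1-/- libraries 3696, 5239, 6289 and 5877. The groups did not overlap, though the highest WT and the lowest edited library were close, and replicate 1 was the lowest of each group. The means were 2415 ± 1009 and 5275 ± 1138 (SD, n = 4 each), a log2 fold change of 1.22 ± 0.33 (SE; limma adjusted p = 0.0214). Low-set libraries alone gave 1.03 (adjusted p = 0.00276), high-set libraries 2.06, and all 8 gave 1.40 with the library set as a term (adjusted p = 0.000866). Leaving out WT replicate 1 gave 0.88 (adjusted p = 0.0116), and the call was lost without WT replicate 2 (0.0521), EXT1-/- replicate 3 (0.0511) or EXT1-/- replicate 4 (0.0535). Its gene (ENSG00000107984, chromosome 10, bases 52314296 to 52318042, plus strand) overlaps the antisense transcript PRKG1-AS1, whose mean count was 33.5 in WT and 78.0 in EXT1-/- cells, a small number beside that of DKK1.

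An exact, two-sided permutation test on each gene's mean log2(normalised count + 1) gave p = 0.0286, the smallest that 4 libraries against 4 allow, for WNT3, WNT5A, WNT8A, SFRP2, FRZB and DKK1. Full separation of the groups always gives this value, so for these genes it restates the lack of overlap and adds no separate support. Across the whole table, groups did not overlap for 33.5% of genes. The same exact permutation test gave p = 0.200 for WNT5B and 0.257 for SFRP1. No adjustment over genes was made to these permutation p-values.

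**Figure D2:**
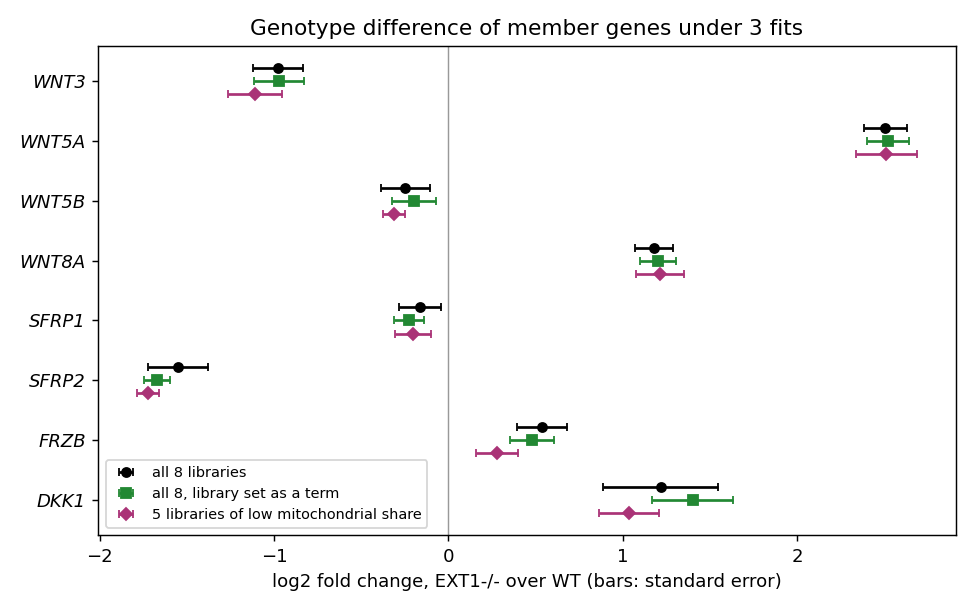
Log2 fold change of each gene, EXT1-/- over WT, with bars for the standard error, from all 8 libraries (black circles), all 8 with the library set as a term (green squares) and the 5 libraries of the low set (purple diamonds). WNT5A stays between 2.50 and 2.52 in the 3 fits, whereas FRZB runs from 0.54 to 0.28 and DKK1 from 1.03 to 1.40.

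Levels were then compared between genes as normalised counts per kilobase of exon (GENCODE 29 basic coding transcripts, merged), a scale on which the order of the 8 genes differed between groups. In WT cells SFRP2 came first at 3197 ± 497 per kilobase (SD, n = 4), followed by WNT5B at 1654 ± 216, DKK1 at 1349 ± 563, SFRP1 at 389 ± 51.1, WNT8A at 216 ± 33.2, WNT3 at 77.7 ± 9.23, FRZB at 52.4 ± 3.66 and WNT5A at 13.6 ± 1.70. Of neighbours in that order, WNT5B and DKK1 overlapped in their ranges and the others did not. In EXT1-/- cells DKK1 came first at 2947 ± 636 per kilobase (SD, n = 4), then WNT5B at 1401 ± 248, SFRP2 at 1105 ± 266, WNT8A at 486 ± 29.2, SFRP1 at 348 ± 47.0, WNT5A at 77.7 ± 9.63, FRZB at 77.2 ± 15.3 and WNT3 at 39.6 ± 6.97. There WNT5B overlapped with SFRP2, and WNT5A with FRZB. SFRP2 exceeded DKK1 in all 4 WT libraries and DKK1 exceeded SFRP2 in all 4 EXT1-/- libraries. WNT5A was the lowest of the 8 genes in WT cells and WNT3 in EXT1-/- cells. Dividing by the longest transcript in place of the merged exons left both orders as they were.

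The summed level of the 4 antagonists overlapped between groups through 1 library, while the shares of SFRP2, DKK1 and FRZB in it did not overlap. Across WT libraries, in replicate order, the sum was 5012, 4854, 5014 and 5066 per kilobase. Across the edited ones it was 3728, 4241, 4765 and 5174. Only EXT1-/- replicate 4, in the high set, was not below every WT library. SFRP2 made up 77.6, 64.3, 61.2 and 53.5% of the sum across WT libraries, in replicate order. Across the edited ones SFRP2 made up 31.4, 21.1, 18.9 and 28.1%. DKK1 made up 12.4, 26.2, 30.5 and 38.9% in WT and 55.4, 69.0, 73.7 and 63.5% in EXT1-/- replicates. SFRP2 therefore held the larger share in each WT library and DKK1 in each edited one. The share of SFRP1 overlapped, at 6.62 to 8.94% in WT and 6.11 to 10.9% in EXT1-/- libraries.

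The 4 ligands together stood at 1641 to 2129 per kilobase in WT and 1695 to 2250 in EXT1-/- libraries, again overlapping. Of these 4, WNT5B was the main transcript in all 8 libraries, with 82.6 to 87.0% of the sum in WT and 64.6 to 74.8% in EXT1-/- cells. WNT8A took 8.53 to 12.5% in WT and 19.9 to 28.7% in EXT1-/- cells. WNT5A went from 0.589 to 0.787% in WT to 3.27 to 4.60%, and WNT3 from 3.77 to 4.20% to 1.62 to 2.11%. WNT3A and WNT11, without a row, are not in these sums, nor are the 5 measured ligands outside the members, such as WNT10B.

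**Figure D3:**
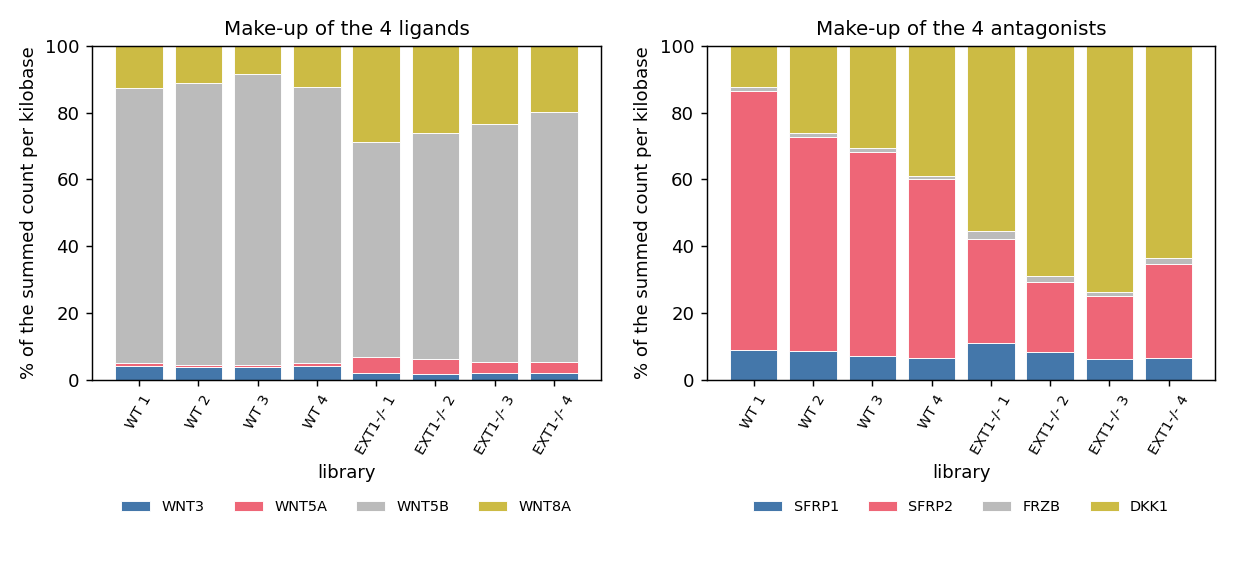
Share of each gene in the summed normalised count per kilobase (%, y axis) of the 4 ligands (left) and the 4 antagonists (right) in each library (x axis). WNT5B takes at least 64.6% of the ligand sum in every library, and DKK1 takes 12.4 to 38.9% of the antagonist sum in WT and 55.4 to 73.7% in EXT1-/- libraries.

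The genes nearest in pattern were found by the root mean square difference between log2 profiles over the 8 libraries, each centred on its own mean, among 12418 genes with a mean of at least 100. The nearest to WNT3 was NODAL, at 0.09, where the profile of WNT3 itself varied by 0.52 about its mean. PARP12 followed at 0.11. NODAL encodes the ligand that induces mesendoderm, and its own log2 fold change was -1.07. The nearest to WNT5A were GALNT10 (0.16) and ENPP2 (0.18), to WNT8A ALCAM (0.11) and PEG3 (0.12), and to SFRP2 HLA-DPB1 (0.10) and S100A11 (0.11). FRZB had WDR34 and SIRT6 (both 0.08), and DKK1 had the most distant neighbours, ID4 (0.27) and NANOS1 (0.31), on a profile that varied by 0.78. The nearest to WNT5B were TSC22D3 and COLGALT2 (0.09 and 0.10). These profiles include the difference between groups, and all are from the same 8 libraries.

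The rest of the pathway was read by role. Of 116 other Wnt pathway genes listed, 96 were measured, and 35 were higher, 12 lower and 49 not called (limma). That is 49.0% called, against 32.0% of all genes, of which 15.2% were higher and 16.8% lower. The median log2 fold change was 0.20 against 0.01 over all genes. WNT4, WNT8B and WIF1 could only be higher and RSPO3 only lower, since each was below 1 CPM in every library of the other group. Counts within the low set are to be read beside 45.0% of all genes called there.

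Of 13 other ligands, 5 were measured: WNT4, WNT8B and WNT9A were higher and 0 were lower (1 lower at an unadjusted p below 0.05; 0 by limma-voom; list median 0.86). WNT4 had 3 to 11 normalised counts in WT and 35 to 55 in EXT1-/- libraries, and WNT8B had 8 to 21 and 45 to 78. Both were below 1 CPM in all WT libraries, so they stood in the table only through their EXT1-/- values and had to be higher. WNT9A rose from 97.2 ± 29.9 to 171.8 ± 18.8 normalised counts (SD, n = 4 each, limma adjusted p = 0.0163). WNT10B, the most abundant of the 5, was not called, at 888.0 ± 97.8 in WT and 770.8 ± 30.1 in EXT1-/- cells. Its log2 fold change was -0.20 ± 0.09 (SE, limma adjusted p = 0.109). The summed count of the 5 overlapped between groups, at 909 to 1172 in WT and 1081 to 1138 in EXT1-/- libraries.

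Other secreted antagonists went both ways, with 2 of 7 measured higher and 2 lower (list median -0.03). DKK4, a relative of DKK1 that also binds LRP co-receptors, fell while DKK1 rose. WT libraries held 145, 204, 263 and 315 normalised counts in replicate order, EXT1-/- libraries 36, 36, 67 and 58 (log2 fold change -2.21 ± 0.29 SE, limma adjusted p = 0.000499). The groups did not overlap. IGFBP4, which can bind Frizzled and LRP6, fell by 1.74 ± 0.13 (SE) on the log2 scale. NOTUM, the enzyme that strips the lipid from Wnt proteins, rose by 1.18 ± 0.25. WIF1, a Wnt-binding protein, was higher by 0.71 ± 0.14, but at 31 to 38 normalised counts in WT it too had entered the table only through EXT1-/- libraries.

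The list for ligand acylation and release, which also holds the proteases TRABD2A and TRABD2B, had 3 of 11 genes higher and 3 lower (median 0.00). Those higher were WLS and the proteases. Those lower were TMED2, PORCN (log2 fold change -0.40) and TMED10 (-0.19). WLS, the carrier that brings Wnt proteins to the cell surface, stood at 9753 ± 886 normalised counts in WT and 19394 ± 2079 in EXT1-/- cells (SD, n = 4 each), a rise of 0.99 ± 0.10 (SE) on the log2 scale (limma adjusted p = 8.66e-05). TRABD2A and TRABD2B, proteases that cut Wnt proteins, rose by 0.43 and 1.04 on the log2 scale, and the cargo receptor TMED2 fell by 0.36.

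Receptors were higher or not called in most cases. Of 10 Frizzled genes 7 were higher and 1 lower (median 0.66), with FZD1, FZD8, FZD10 and FZD7 at log2 fold changes of 1.50, 2.20, 1.06 and 0.57. FZD8 was near the table's floor in WT, at 26 to 50 normalised counts. Of 13 co-receptor and non-Frizzled receptor genes 6 were higher and 0 lower by limma (1 lower at an unadjusted p below 0.05; 0 by limma-voom; median 0.11). Low-set libraries alone called 6 higher and 2 lower. ROR2 and ROR1, receptors of WNT5A, rose by 0.91 ± 0.11 and 0.52 ± 0.07 (SE) on the log2 scale, LRP4 by 0.78 and the glypican GPC3, a heparan sulfate carrier, by 0.72.

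In the R-spondin arm, whose members act to keep or to remove Frizzled at the cell surface, 3 of 6 were higher and 2 lower (median 0.38). RSPO3, an R-spondin ligand, had 87, 119, 166 and 215 normalised counts across WT libraries in replicate order, and 15, 17, 14 and 16 across edited ones (log2 fold change -3.09 ± 0.27 SE). All its EXT1-/- values were below 1 CPM, so it stood in the table only through WT libraries and had to be lower. Its receptor LGR4 rose by 0.49, and ZNRF3 and RNF43, ligases that remove Frizzled, by 0.52 and 1.13 on the log2 scale.

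Inside the cell, 0 of 11 destruction complex and Dishevelled genes were called by the main limma fit (0 by limma-voom, median 0.12). At an unadjusted p below 0.05, 2 were higher and 0 lower, and the low set called 2 higher. With the library set as a term AXIN1, CTNNB1 and AMER1 were called higher, beside 51.8% of all genes called there. Of 11 nuclear factors 3 were higher (PYGO2, TLE3 and TLE4 at 0.26, 0.60 and 0.22) and 0 lower (1 lower at an unadjusted p below 0.05; 0 by limma-voom; median 0.31). Low-set libraries alone called 8 higher and 1 lower. Of 16 β-catenin target genes measured, 7 were higher and 2 lower (median 0.29). AXIN2, TNFRSF19, RNF43 and CCND1 rose by 0.92, 1.09, 1.13 and 0.68 on the log2 scale. The 2 lower were APCDD1 and TBXT, at log2 fold changes of -0.99 and -0.90. Low-set libraries alone called 8 higher and 6 lower, around a median of 0.14. Of 10 planar polarity genes 3 were higher and 2 lower (median 0.10), among them PRICKLE2 at 0.61 and VANGL1 at -0.50. RNF43, ZNRF3, LEF1 and TCF7 stand in more than 1 of these lists.

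**Figure D4:**
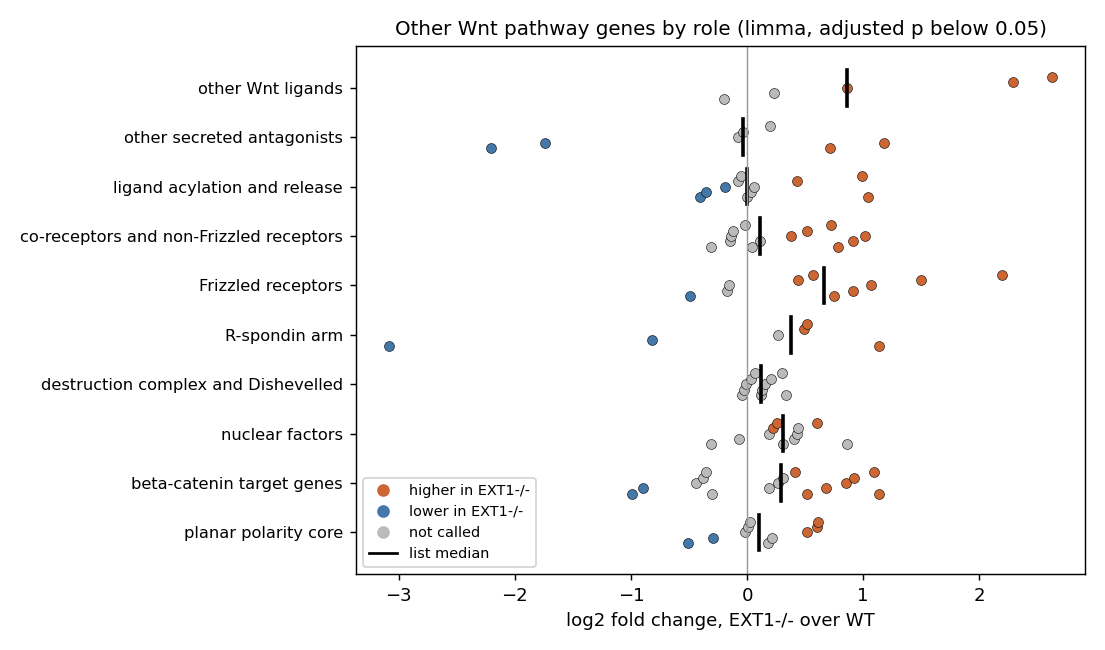
Log2 fold change, EXT1-/- over WT (x axis), of each measured gene in the 10 Wnt pathway lists (y axis), orange where higher, blue where lower and grey where not called, with a bar at the list median. The points farthest to the left are RSPO3 at -3.09, which is in the table only through WT libraries and had to be lower, and DKK4 at -2.21. No destruction complex gene was called by the main limma fit.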

How the data were processed

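The deposited table holds, for each gene, 1 value per library and the authors' own comparison. Per the submitters' processing notes, STAR, RSEM and edgeR were used with GRCh38.p10, and no versions are given. The library columns are a normalised signal that the authors deposited as whole numbers: effective library sizes, by a trimmed mean of M values computed here, were 38891466 to 38902443 in all 8, so they are not raw counts and no count model was run. Every gene reaches 0.977 CPM or more in at least 2 libraries, so genes below that are not in the table. The table's log2 fold change, log2 CPM, likelihood ratio score, p-value and FDR are the authors' deposited values and are named so where used.

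From these values log2(value + 1) was fitted with limma 3.58.1 (R 4.3.3) with an intensity trend and genotype as the only term, over all 15811 genes, with Benjamini-Hochberg adjustment. A minimum mean of 1 in either group removed 0 genes. The code was tested on simulated data. Groups and replicate numbers came from the sample titles, and 0 columns belonged to other samples. Tables were made with pandas 2.3.3, numpy 2.4.6 and scipy 1.17.1 under Python 3.11.15, and figures with matplotlib 3.10.9. GENCODE 29 gave coordinates and exon lengths (15777 genes matched), and RefSeq (GRCh38.p14) the promoter windows. TBXT was matched by gene ID. Members and lists were chosen with earlier results of these data known. Genes named are the members, EXT1, the 2 nearest in pattern to each member, and up to 4 genes of each list with the smallest adjusted p. The genes nearest to SFRP1 are not reported here. Overlapping genes, genome neighbours, SOX2, LIN28A, DLX5, PORCN, TMED10, WNT10B, CTNNB1 and APCDD1 fall outside this rule and were chosen after values were seen. As alternatives the scaling, the filter, the pseudocount and the test were changed in turn, a replicate block or the library set was added, and each library was left out.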

Additional observations from a re-analysis of the deposited data

Results flagged for a closer look

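In 20 groups of 4 values tested (the 8 members, EXT1 and the mitochondrial share in each genotype), 2 had a library standing apart from the other 3, and chance flags about 1 in 20 such groups. EXT1 was at 1776 normalised counts in WT replicate 1 against 1464 to 1508 in the other WT libraries. The mitochondrial share of WT replicate 1 was 10.67% against 5.30 to 5.43% in the other WT libraries. None of the 8 Wnt ligand and antagonist genes had such a library, although DKK1 in the same WT replicate 1 was at 1117 against 2273 to 3529.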

How the results depend on the processing

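Calls and directions of WNT3, WNT5A, WNT8A, SFRP2 and SFRP1 held under all 20 alternatives, with log2 fold changes of -1.11 to -0.88, 2.39 to 2.56, 1.10 to 1.27, -1.72 to -1.45 and -0.24 to -0.08. DKK1 kept its call in 17 of 20 and FRZB in 15 of 19; leaving out 1 library gave 0.88 to 1.44 for DKK1 and 0.44 to 0.65 for FRZB, with adjusted p up to 0.0535 and 0.0575. Within the low set FRZB was 0.28 and not called. A filter of 5 CPM in 4 libraries removed FRZB, so it has no value there. That filter kept WNT5A only through EXT1-/- libraries and WNT3 only through WT libraries. The alternative without a filter on low values repeats the main fit, since the minimum mean removed 0 genes, and adds no check. WNT5B became called within the low set (-0.31) and with the replicate block (-0.25); the cause was not tested. With the library set as a term 8195 genes were called, 4142 higher and 4053 lower, against 5063, 2405 and 2658; leaving out 1 library gave 3721 to 6041. Titles share replicate numbers, and the deviations of same-numbered libraries from their group means had correlations of 0.78, 0.44, 0.26 and -0.65 (13004 genes). The libraries numbered 4 thus deviated in opposite directions. Replicate 1 was in the high set in both groups and replicate 4 in EXT1-/- only, which these correlations do not separate. They therefore cannot decide whether the numbers pair the samples. With that replicate block 4934 genes were called, 2276 of them higher and 2658 lower, and 7 of the 8 members. In 1 of 4 cases a WT library correlated best with its own number. Exact permutation tests were not repeated with libraries left out, since too few divisions remain to pass. Raw depth is unknown, and the lowest member value was 73 normalised counts (WNT5A in WT).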

Other observations

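Genes next to the members in the genome were read as values. CACNA2D3 and ERC2, which flank WNT5A at 391 and 17.8 kb among genes of the table, were higher by 0.97 ± 0.14 and 0.41 ± 0.07 (SE) on the log2 scale (adjusted p = 0.00105 and 0.00222, limma), both less than WNT5A at 2.50. On either side of WNT3, which fell, NSF had a log2 fold change of 0.13 (adjusted p = 0.150) and GOSR2 was higher by 0.17 (adjusted p = 0.0393). Beside SFRP2, RNF175 and PLRG1 stood at -0.10 and -0.03 (adjusted p = 0.588 and 0.793). Beside SFRP1, ZMAT4 was lower at -0.72 (adjusted p = 0.0274) and GOLGA7 stood at 0.03 (adjusted p = 0.756). Beside FRZB, DNAJC10 and NCKAP1 stood at 0.03 and -0.35 (adjusted p = 0.840 and 0.123). The outer neighbours of WNT5B (ERC1 and ADIPOR2) and of DKK1 (PRKG1 and ZWINT) were not called. FAM13B and NME5, on either side of WNT8A, were higher by 0.33 and 0.41 (adjusted p = 0.0434 and 0.0350). These neighbours were chosen by position after the members' values were known.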
